A study of Gorilla gorilla gorilla with 14 samples.

Results

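Chromatin accessibility was examined at the stathmins and other neuronal microtubule genes (STMN1, STMN2, STMN3, STMN4, MAPT, MAP2, MAP1B, TUBB3, GAP43 and DCLK1) in sorted cells of gorilla cerebral organoids. Members were the regions of the deposited count table that carried a gorilla position and listed 1 of these 10 genes as the closest gene. There were 141 such regions among 204249 in all, 14 of them promoter regions, listed at most 1000 bp from the gene, and 127 distal regions. DCLK1 held 34 regions, MAP2 32, MAP1B 28, GAP43 15, STMN2 13, STMN4 8, STMN1 7, TUBB3 3 and MAPT 1. The 3 rows of STMN3 and 1 row of STMN4 had no gorilla position, so STMN3 was not measured. After the filter on low counts 140 regions were tested, which left out the STMN2 region at 18480 bp.

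The assay was bulk ATAC-seq, in which a transposase inserts adapters where DNA is open, so that the reads in a region count its accessibility. All libraries came from organoids in week 8 of culture, grown from a single induced pluripotent stem cell line of gorilla, GC1, so genotype and age are shared and no spread between animals was sampled. The groups were neurons (N, 4 libraries, sorted as BCL11B+ per the labels), basal intermediate progenitors (bIP, 5 libraries), basal radial glia (bRG, 2 libraries) and apical radial glia (aRG, 3 libraries). Nothing in the labels ties a library to its own culture or batch of organoids, and the spread behind the p-values is that between these samples, which may be technical.

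As background, microtubules are polymers of alpha and beta tubulin that grow and shrink at their ends, and the axons and dendrites of a young neuron are built along them. Stathmins bind free tubulin dimers and favour shrinkage, whereas MAPT (tau), MAP2, MAP1B and DCLK1 bind along the polymer and stabilise or organise it. TUBB3 is a beta tubulin used as a neuronal marker, and GAP43 is a membrane protein of growth cones rather than a microtubule protein. Apical radial glia are the founder progenitors of the cortex and give rise to basal radial glia, to basal intermediate progenitors and, largely through the intermediate progenitors, to neurons.

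Library totals ran between 12834983 and 26660427 counts, and levels are given below in CPM, counts scaled to a common library total. A count of 3 corresponded to between 0.114 and 0.208 CPM. Promoter regions held between 30.4% and 39.1% of the counts. By their numbers in the labels the libraries fall into 2 runs of 7, the first and the second library series. The first held N1, N2, bIP1, bIP2, bIP3, aRG1 and aRG2, the second N3, N4, bIP4, bIP5, both bRG libraries and aRG3. Some libraries of a group were much closer than others: the chi-square per degree of freedom over regions was 1.07 for aRG1 with aRG2, 1.11 for bIP1 with bIP2 and 1.44 for the bRG pair, against 2.47 to 11 for the other pairs. These pairs still differed beyond sampling noise, which does not show that they are independent samples. Each library was counted on its own. In an alternative, called closest pairs summed below, aRG1 was summed with aRG2 and bIP1 with bIP2. The bRG pair was not summed, so how the results with bRG depend on that pair was not checked in this way. Calls that this alternative ended are named for some regions only.

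The sort labels were set against the main promoter region of marker genes, the promoter region of a gene with the highest mean CPM. All 8 radial glia markers were lower in N than in bIP and lower in bIP than in aRG, with summed levels of 121 to 150 CPM in N, 175 to 275 CPM in bIP, 352 to 383 CPM in bRG and 419 to 474 CPM in aRG. Of all 19305 main promoter regions tested, 22.3% were lower in N than in bIP and 18.4% lower in bIP than in aRG. The 6 intermediate progenitor markers measured were all lower in N than in bIP, with sums of 90.1 to 112 CPM in N, 162 to 271 CPM in bIP, 102 CPM in both bRG libraries and 66.4 to 109 CPM in aRG, and 5 of them were higher in bIP than in aRG. Of 7 excitatory neuron markers, 6 were higher in N than in aRG, and 5 were higher in bIP than in aRG. Of all main promoter regions 16.3% and 10.7% were. Between N and bIP 1 marker was higher and 1 lower in N, against 13.7% and 22.3%. The sums of these markers were 150 to 233 CPM in N, 157 to 252 CPM in bIP, 71.8 to 72.5 CPM in bRG and 65.2 to 82.2 CPM in aRG. BCL11B itself, named in the sort label, was not called, with a difference of -0.22 from bIP (log2, adjusted p = 0.28) and 0.07 from aRG (adjusted p = 0.76). None of the 5 basal radial glia markers measured was called between bRG and aRG. The GABAergic list summed to between 66.9 and 95.1 CPM in N, 93.2 and 137 CPM in bIP, 101 and 107 CPM in bRG and 103 and 122 CPM in aRG, with 1 of 7 higher and 4 lower in N than in bIP. The lists of choroid plexus and hem, mesenchyme and glia summed to at most 54.4 CPM there, against at most 81.6 CPM in bIP, 89.9 CPM in bRG and 105 CPM in aRG. The part of other cells in the results below was not tested.

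Differences below are log2 differences with their standard error from edgeR's quasi-likelihood fit of all 14 libraries, with the library series as a term. P-values carry a Benjamini-Hochberg adjustment over the 200931 regions tested, and a region was called at an adjusted p under 0.05. Of the 140 member regions, 47 were higher and 38 lower in N than in bIP, where 28.8% and 26.4% of all regions were called. Between N and aRG 59 members were higher and 36 lower, against 37.1% and 29.2% of all regions. Between bIP and aRG 40 were higher and 26 lower, against 24% and 20.9%. Between N and bRG 51 were higher and 30 lower, against 32.2% and 25.8%, and between bIP and bRG 36 were higher and 17 lower, against 20.4% and 16.1%. The members' counts were thus close to those shares of 140. In bulk libraries a larger share of open cells and greater opening per cell cannot be told apart.

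The 14 promoter regions moved in both directions. In all, 3 were higher and 5 lower in N than in bIP, where 14.3% and 22.9% of all promoter regions were called. Between N and aRG 4 were higher and 4 lower, against 17.2% and 35.1%. Between bIP and aRG 4 were higher and 1 lower, against 11.5% and 18.4%. The median difference of the member promoters was -0.32 between N and bIP (all promoters -0.13), -0.07 between N and aRG (all promoters -0.26) and 0.10 between bIP and aRG (all promoters -0.15). Within the first series alone 4 were higher and 3 lower between N and bIP (median -0.05), and within the second none was higher and 4 were lower (median -0.42). The splits also depend on the scaling. With loess offsets, which centre regions of like abundance, they became 6 higher and 4 lower between N and bIP, 10 and 4 between N and aRG, and 10 and 1 between bIP and aRG. With plain library totals they were 4 and 5, 6 and 3, and 5 and 1. With the closest pairs summed they were 1 and 3, 3 and 4, and 2 and 0. The shares of all promoter regions called under these alternatives were not computed, so the splits are not read as a trait of these genes. With loess offsets the 48 main promoters of other microtubule genes, described below, moved too. Between N and aRG they went from 3 higher and 17 lower to 25 and 4.

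**Figure D1:**
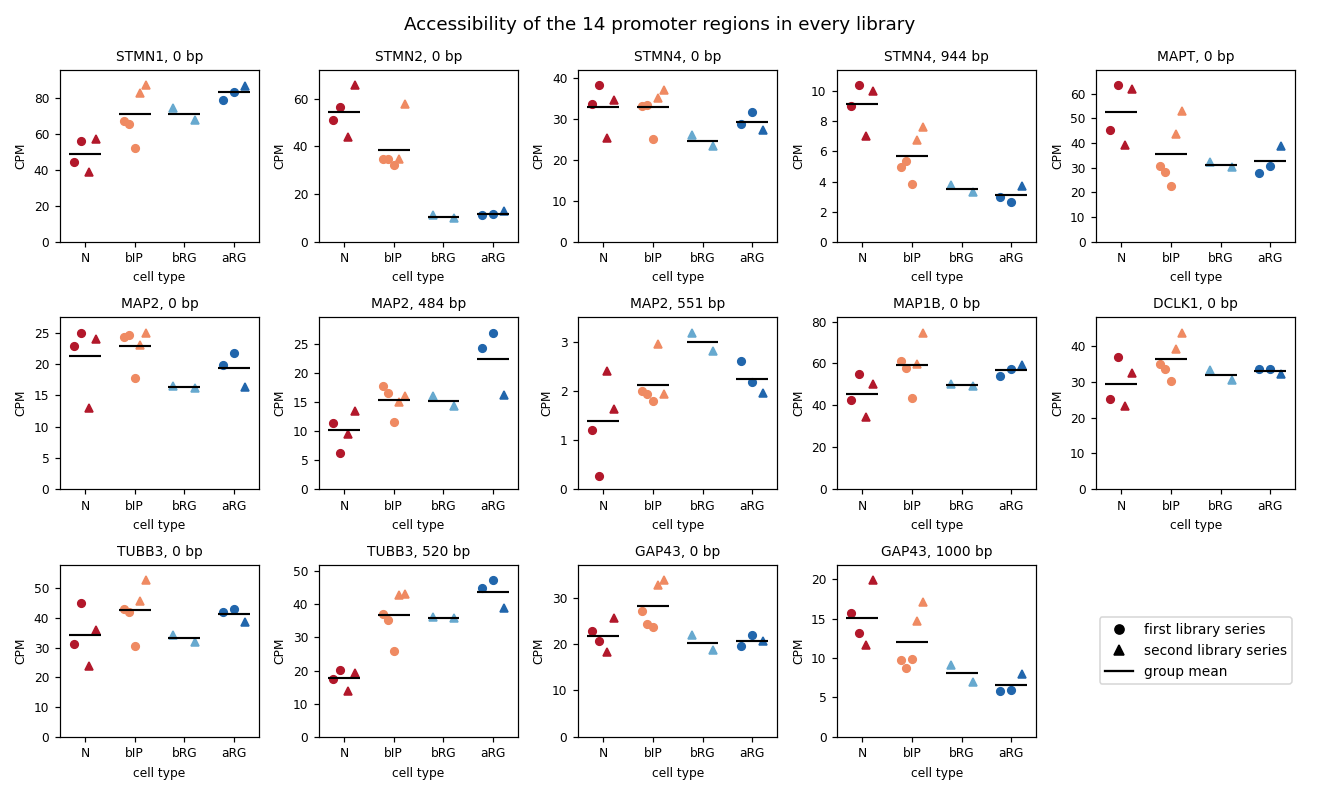
Accessibility of the 14 member promoter regions in each library (CPM, vertical axis) for N, bIP, bRG and aRG, with points for libraries, marked by library series, and a line at the group mean. At STMN2 the N and bIP libraries, at 32 CPM or more, all lie above the bRG and aRG libraries, at 12.7 CPM or less.

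STMN2, a neuron-enriched stathmin of growth cones known from axon growth and repair, showed the largest differences from the radial glia among the 14 promoter regions, in bIP as well as in N. Its promoter region (chr8:34975513-34978712, gorGor6) held 51.1, 56.3, 43.9 and 65.6 CPM in N, 34.5, 34.6, 32, 34.6 and 57.5 CPM in bIP, 11 and 10.1 CPM in bRG, and 11.1, 11.7 and 12.7 CPM in aRG. Every N and bIP library lay above every radial glia library, while N and bIP overlapped through bIP5, the highest of its group. The region was higher in N than in aRG by 2.16 ± 0.21 (adjusted p = 1.7e-09) and higher in bIP than in aRG by 1.68 ± 0.20 (adjusted p = 1.25e-07). Within the first series alone the step between bIP and aRG was 1.58 and within the second 1.86. The further gain in N over bIP was 0.48 ± 0.16 (adjusted p = 0.0156), with 0.68 in the first series and 0.24 in the second, where it did not pass. It also failed to pass without bIP4 (0.37), without N4 (0.40) and with the closest pairs summed (0.42). By group mean the order of levels was N, bIP, aRG and bRG, in which N and bIP overlapped and aRG and bRG were not called apart.

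Distal regions of STMN2 gave both gains and losses in N: of 11 tested, 3 were higher and 3 lower than in bIP. Of all distal regions with a listed gene, 30.6% were higher and 26.7% lower. Between bIP and aRG 4 were higher and 2 lower in bIP, against 25.5% and 21.1% of all distal regions. The region at 23978 bp (chr8:34953759-34954603) held 7.17, 6.05, 5.96 and 10.5 CPM in N, 2.57, 2.27, 3.19, 1.72 and 2.08 CPM in bIP, 0.607 and 0.750 CPM in bRG, and 0.356, 0.561 and 0.883 CPM in aRG. It gained at both steps without overlap, by 1.65 ± 0.23 in N over bIP (adjusted p = 1.61e-06) and by 1.98 ± 0.33 in bIP over aRG (adjusted p = 1.88e-05), the second step not passing in the second series alone (1.1). The region at 39823 bp (chr8:34937503-34938716) had another course, open in bIP and lower again in N. It held 4.40, 3.47, 3.75 and 5.11 CPM in N, 8.29, 9.64, 7.28, 12.2 and 12 CPM in bIP, 4.50 and 3.61 CPM in bRG, and 3.48, 2.43 and 3.48 CPM in aRG. Every bIP library lay above all others, with differences of -1.25 ± 0.19 for N against bIP (adjusted p = 3.26e-06) and 1.61 ± 0.21 for bIP against aRG (adjusted p = 8.25e-07).

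STMN1, the widely expressed stathmin of dividing and migrating cells, went down at its promoter and up at its distal regions. The promoter region (chr1:21747120-21749460) held 44.1, 55.8, 38.6 and 57.2 CPM in N, 67.4, 65.2, 52.3, 82.5 and 87.0 CPM in bIP, 74.3 and 67.5 CPM in bRG, and 78.9, 83.5 and 86.6 CPM in aRG. All N libraries were below the bRG and aRG libraries, and N overlapped bIP only through bIP3. The promoter was lower in N than in aRG by -0.79 ± 0.18 (adjusted p = 0.000461) and than in bIP by -0.54 ± 0.16 (adjusted p = 0.00621), the difference from bIP being -0.30 in the first series, where it did not pass, and -0.83 in the second. Between bIP and aRG it was not called (-0.25 ± 0.17, adjusted p = 0.258).

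Of the 6 distal regions of STMN1, 5 were higher and none lower in N than in bIP (30.6% and 26.7% of all distal regions). Between bIP and aRG 4 of the 6 regions were higher and none lower in bIP (25.5% and 21.1%). Their summed level was 58.3 ± 17.2 CPM in N (SD, n = 4), 40.3 ± 9.46 CPM in bIP (n = 5), 30.2 ± 3.64 CPM in bRG (n = 2) and 27.0 ± 6.88 CPM in aRG (n = 3). The nearest of them, at 1056 bp (chr1:21750160-21750668), lay just outside the promoter limit. It held 5.46, 4.28, 7.93 and 14.2 CPM in N, 2.04, 2.14, 1.87, 3.31 and 3.24 CPM in bIP, 0.961 and 0.984 CPM in bRG, and 0.632, 0.499 and 1.37 CPM in aRG. No N library overlapped another group, and the difference was 1.5 ± 0.21 between N and bIP (adjusted p = 8.95e-07) and 1.56 ± 0.28 between bIP and aRG (adjusted p = 4.36e-05). The region at 6943 bp gained likewise, by 1.14 ± 0.20 in N over bIP (adjusted p = 3.41e-05) and by 1.56 ± 0.27 in bIP over aRG (adjusted p = 3.14e-05). The most open distal region, at 14967 bp, averaged 23.3 CPM in N, 16.1 CPM in bIP, 14.5 CPM in bRG and 12.5 CPM in aRG. Its difference of 0.50 ± 0.16 between N and bIP (adjusted p = 0.00804) did not pass in the second series alone (0.29), without the series term (0.53) or with the closest pairs summed (0.44).

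STMN4, a stathmin of the nervous system, had a main promoter region that was called in no comparison beside a less open one that was higher in N. The main region (chr8:25708555-25710058) held 33.8, 38.3, 25.3 and 34.6 CPM in N, 33.3, 33.4, 25.2, 35.2 and 37.1 CPM in bIP, 26.1 and 23.3 CPM in bRG, and 28.7, 31.8 and 27.3 CPM in aRG. N and bIP each overlapped the aRG levels and bRG lay below aRG without a call. The difference between N and bIP was 0.00 with a 95% interval of -0.32 to 0.33, although loess offsets called it higher in N (0.34). The region at 944 bp (chr8:25707880-25708431), the member just inside the limit with the GAP43 region at 1000 bp, held 9.04, 10.4, 7.01 and 10.0 CPM in N, 4.96, 5.37, 3.82, 6.76 and 7.63 CPM in bIP, 3.79 and 3.28 CPM in bRG, and 2.96, 2.62 and 3.68 CPM in aRG. It was higher in N than in aRG by 1.53 ± 0.23 (adjusted p = 2.69e-06), and no N library overlapped the radial glia. It was higher in N than in bIP by 0.67 ± 0.19 (adjusted p = 0.00400), with 1.04 in the first series and 0.24 in the second, where it did not pass. It was higher in bIP than in aRG by 0.86 ± 0.22 (adjusted p = 0.00262), a call lost without aRG2 (0.65), with the closest pairs summed (0.69) and in the second series alone (0.97).

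Distal regions of STMN4 gained in N: 5 of 6 were higher than in bIP and none was lower, against 30.6% and 26.7% of all distal regions. In bIP 1 of the 6 was higher than in aRG, against 25.5%. The region at 38192 bp averaged 3.08 CPM in N, 0.705 CPM in bIP, 0.213 CPM in bRG and 0.311 CPM in aRG. These levels rest on 257 counts summed over the N libraries, 69 over bIP, 9 over bRG and 19 over aRG, and the gain in N over bIP was 2.12 ± 0.31 (adjusted p = 1.94e-06). The region at 15769 bp, the most open, averaged 26.1 CPM in N, 28.7 CPM in bIP, 22.5 CPM in bRG and 32.3 CPM in aRG and was not called in any comparison.

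MAPT encodes tau, the axonal microtubule-associated protein that aggregates in tauopathies, and had a single region. Its promoter (chr5:35996509-35998862) held 45.1, 63.3, 39.2 and 61.8 CPM in N, 30.6, 28.2, 22.4, 43.5 and 52.9 CPM in bIP, 32.3 and 30.1 CPM in bRG, and 27.9, 30.8 and 38.9 CPM in aRG. All N libraries were above bRG and aRG, while bIP4 and bIP5 lay within the range of N. MAPT was higher in N than in bIP by 0.58 ± 0.19 (adjusted p = 0.010), but the series disagreed: the difference was 1.00 in the first and 0.06 in the second, where it did not pass. The call was also lost without N2 (0.37) and with the closest pairs summed (0.52). Between N and aRG the difference was 0.65 ± 0.22 (adjusted p = 0.010), with 0.91 in the first series and 0.37 in the second, where it did not pass. That call was also lost without aRG2, N2, N4 or bIP4 (0.42 to 0.50). Between bIP and aRG MAPT was not called (0.07 ± 0.20, adjusted p = 0.812).

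MAP2, the microtubule-associated protein of dendrites, had a main promoter that was not called in any comparison, beside 2 promoter regions that were lower in N. The main region (chr2B:96405726-96406411) held 23.0, 25, 13.0 and 24.0 CPM in N, 24.3, 24.7, 17.8, 23.1 and 25 CPM in bIP, 16.4 and 16.3 CPM in bRG, and 19.9, 21.8 and 16.3 CPM in aRG. All groups overlapped except bIP and bRG, which were not called (0.40 ± 0.24, adjusted p = 0.206). The region at 484 bp (chr2B:96404097-96405533) held 11.4, 6.25, 9.56 and 13.4 CPM in N, 17.8, 16.6, 11.7, 15.1 and 16.1 CPM in bIP, 16.1 and 14.4 CPM in bRG, and 24.4, 27.0 and 16.2 CPM in aRG. It was lower in N than in aRG by -1.14 ± 0.23 (adjusted p = 0.000112), with -0.50 in the second series alone, where it did not pass. Against bIP it was lower in N by -0.60 ± 0.20 (adjusted p = 0.0145), with -0.45 in the second series. That call rested on N2, without which the difference was -0.39 and did not pass, and loess offsets ended it as well (-0.17). The region at 484 bp was also lower in bIP than in aRG, by -0.54, the only member promoter called lower there. With the closest pairs summed or in the second series alone no member promoter was called lower in bIP than in aRG. Another region, at 551 bp, was less open, with 1.21, 0.272, 2.40 and 1.64 CPM in N, 2.01, 1.94, 1.80, 2.96 and 1.93 CPM in bIP, 3.18 and 2.81 CPM in bRG, and 2.61, 2.18 and 1.96 CPM in aRG. N2 was the lowest library and N3 lay among those of aRG. It was lower in N than in aRG by -0.83 ± 0.35 (adjusted p = 0.0366) and lower in N than in bRG by -0.89 (adjusted p = 0.0462). The call against aRG was lost without N1 (-0.87), N2 (-0.49) or aRG1 (-0.62), with no series term, with library totals and in the second series alone (0.037), and that against bRG was lost under most settings.

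MAP2 held 6 of the 12 distal member regions that were highest in bIP. Of 29 tested, 13 were higher and 4 lower in bIP than in aRG (25.5% and 21.1% of all distal regions). Between N and bIP 7 of the 29 regions were higher and 12 lower in N (30.6% and 26.7%). Their summed level was 89.9 ± 23.4 CPM in N (SD, n = 4), 141 ± 9.34 CPM in bIP (n = 5), 106 ± 4.04 CPM in bRG (n = 2) and 103 ± 0.495 CPM in aRG (n = 3). All bIP libraries lay above all others in this sum. The region at 33805 bp (chr2B:96371278-96372216) held 7.09, 2.85, 2.31 and 3.61 CPM in N, 19.8, 18.3, 16.8, 21.6 and 25 CPM in bIP, 2.63 and 2.95 CPM in bRG, and 0.870, 0.936 and 2.79 CPM in aRG. The bIP libraries stood clear of all others, with 3.73 ± 0.36 for bIP over aRG (adjusted p = 7.1e-09; 4.36 in the first series and 3.06 in the second) and -2.32 ± 0.28 for N against bIP (adjusted p = 1.69e-07; -1.79 and -2.98).

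The MAP2 region at 20611 bp (chr2B:96426349-96427507) followed the same course. It held 3.51, 3.74, 1.73 and 2.11 CPM in N, 15.7, 16.3, 9.99, 7.51 and 10.0 CPM in bIP, 3.24 and 3.23 CPM in bRG, and 3.04, 3.81 and 3.28 CPM in aRG. It was lower in N than in bIP by -2.06 ± 0.21 (adjusted p = 9.2e-09) and higher in bIP than in aRG by 1.82 ± 0.23 (adjusted p = 3.65e-07). The most open distal region, at 58710 bp (chr2B:96345371-96347046), was lowest in N, with 16.8, 10.9, 10.8 and 17.8 CPM there, 38.2, 33.8, 27.5, 40.5 and 32.2 CPM in bIP, 25.8 and 23.0 CPM in bRG, and 31.3, 30.7 and 23.3 CPM in aRG. Its difference between N and bIP was -1.29 ± 0.18 (adjusted p = 1.55e-06), and it was not called between bIP and aRG. At 31066 bp the radial glia were highest: the region averaged 1.06 CPM in N, 1.61 CPM in bIP, 4.77 CPM in bRG and 6.80 CPM in aRG, a difference of -2.09 ± 0.27 between bIP and aRG (adjusted p = 4.96e-07).

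**Figure D2:**
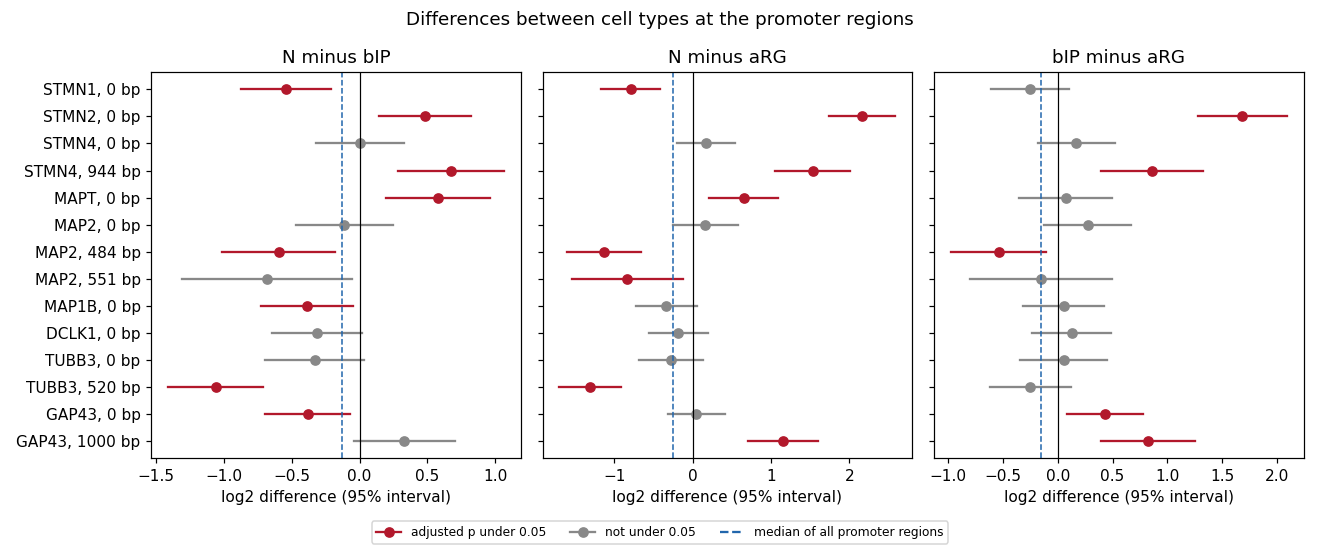
Log2 differences of the 14 member promoter regions with 95% intervals (horizontal axis) for N minus bIP, N minus aRG and bIP minus aRG, regions by gene and distance in bp down the page, and the median of all promoter regions as a dashed line. The STMN2 promoter stands at 2.16 in N minus aRG and 1.68 in bIP minus aRG, and the TUBB3 region at 520 bp at -1.06 in N minus bIP.

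MAP1B, an early microtubule-associated protein of growing axons, had a promoter near the threshold. The region (chr17:23939367-23941657) held 42.4, 54.9, 34.7 and 50.1 CPM in N, 61.0, 57.7, 43.4, 59.9 and 74.6 CPM in bIP, 50.4 and 49.1 CPM in bRG, and 54.1, 57.5 and 59.1 CPM in aRG. N overlapped all other groups. The difference between N and bIP of -0.39 ± 0.17 (adjusted p = 0.0497) was -0.15 in the first series and -0.67 in the second, and failed to pass when any of 12 libraries was left out, so it is given as a value only. With loess offsets the difference from aRG turned positive and was called (0.17, against -0.33 ± 0.19).

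Among the 27 distal MAP1B regions 7 were higher and 7 lower in N than in bIP (30.6% and 26.7% of all distal regions). Between bIP and aRG 3 of the 27 regions were higher and 7 lower in bIP (25.5% and 21.1%). Their sum was 135 ± 18.3 CPM in N (SD, n = 4), 136 ± 12 CPM in bIP (n = 5), 167 ± 10.1 CPM in bRG (n = 2) and 190 ± 19.1 CPM in aRG (n = 3), so that all radial glia libraries lay above those of N and bIP. The region at 120750 bp (chr17:24062500-24063674) closed stepwise, with 1.44, 1.70, 1.06 and 0.375 CPM in N, 5.07, 4.60, 2.57, 2.21 and 1.01 CPM in bIP, 11.7 and 9.37 CPM in bRG, and 23.8, 25.8 and 10.5 CPM in aRG. It was lower in bIP than in aRG by -2.62 ± 0.24 (adjusted p = 3.5e-09) and lower in N than in bIP by -1.32 ± 0.28 (adjusted p = 0.000225). The region at 51439 bp (chr17:23992910-23993467) was seen almost only in N, with 93, 51, 27 and 63 counts there against 11, 7, 1, 6 and 1 counts in bIP. These counts are 3.63, 3.47, 1.30 and 2.96 CPM in N, against 0.416, 0.453, 0.0694, 0.265 and 0.0483 CPM in bIP, and the region stayed at 0.506 CPM or less in bRG and 0.632 CPM or less in aRG. The gain in N over bIP was 3.52 ± 0.38 (adjusted p = 2.34e-08).

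DCLK1 encodes a doublecortin-like protein that couples a microtubule-binding part to a kinase and is made in migrating neurons and in some progenitors. Its promoter (chr13:16483306-16485386) held 25.1, 36.9, 23.2 and 32.4 CPM in N, 35.0, 33.5, 30.1, 39.2 and 43.7 CPM in bIP, 33.3 and 30.6 CPM in bRG, and 33.6, 33.5 and 32.2 CPM in aRG. The groups overlapped and no comparison was called. The difference was -0.31 between N and bIP, with a 95% interval of -0.64 to 0.02, and that from aRG (-0.18 ± 0.18) turned to 0.29 with loess offsets and was called there.

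Among the 33 distal regions of DCLK1 tested 14 were higher and 6 lower in N than in bIP (30.6% and 26.7% of all distal regions). Between bIP and aRG 8 of the 33 were higher and 8 lower in bIP (25.5% and 21.1%). The region at 91254 bp (chr13:16393370-16394732) opened in bIP and stayed open, with 15.9, 11.3, 13.3 and 22 CPM in N, 14.6, 17.3, 15.7, 22.2 and 23.8 CPM in bIP, 3.08 and 2.76 CPM in bRG, and 0.949, 0.998 and 2.75 CPM in aRG. It was higher in bIP than in bRG by 3.03 ± 0.30 (adjusted p = 7.55e-08) and than in aRG by 3.59 ± 0.26, and was not called between N and bIP (-0.31 ± 0.19, adjusted p = 0.171). The region at 68984 bp (chr13:16414652-16416146) opened mainly in N, with 13.4, 10.2, 9.51 and 18.8 CPM in N, 4.54, 3.5, 4.37, 3.71 and 3.38 CPM in bIP, 1.72 and 1.45 CPM in bRG, and 1.38, 1.43 and 1.77 CPM in aRG. Its gain in N over bIP was 1.73 ± 0.20 (adjusted p = 9.18e-08).

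A region somewhat farther from the gene did the reverse. At 100865 bp (chr13:16384598-16385114) the levels were 0.741, 0.611, 1.01 and 0.563 CPM in N, 1.1, 1.42, 1.67, 1.99 and 1.06 CPM in bIP, 10.5 and 8.48 CPM in bRG, and 10.5, 9.30 and 9.12 CPM in aRG. Every radial glia library lay above every N and bIP library, and the region was lower in bIP than in aRG by -2.75 ± 0.23 (adjusted p = 1.1e-09). The most open region, at 176564 bp, averaged 39.1 CPM in N, 32 CPM in bIP, 17.2 CPM in bRG and 22 CPM in aRG, with 0.81 ± 0.20 for N over aRG (adjusted p = 0.00097).

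TUBB3, the neuronal beta tubulin, had a main promoter region that was not called in any comparison and a second that was lower in N. The region at the gene (chr16:74084962-74086342) held 31.3, 45.0, 23.9 and 36.1 CPM in N, 43.1, 41.9, 30.5, 45.7 and 52.6 CPM in bIP, 34.2 and 32 CPM in bRG, and 41.9, 43.1 and 38.7 CPM in aRG. N and bIP overlapped each other and both radial glia groups, and bRG lay below aRG without a call. The difference between N and bIP was -0.33 with a 95% interval of -0.70 to 0.03, being -0.01 in the first series and -0.72 in the second, where it passed. Against aRG it was -0.28 ± 0.20 (adjusted p = 0.229), which turned to 0.20 with loess offsets and was called there. The region at 520 bp (chr16:74086447-74087523) was lower in N than in every other group. It held 17.5, 20.3, 13.7 and 19.3 CPM in N, 37.0, 35.3, 26.0, 42.8 and 43.2 CPM in bIP, 36.2 and 35.7 CPM in bRG, and 44.9, 47.3 and 38.8 CPM in aRG. No N library overlapped another group. The difference was -1.06 ± 0.17 from bIP (adjusted p = 8.42e-06), -1.0 ± 0.22 from bRG (adjusted p = 0.000447) and -1.31 ± 0.19 from aRG (adjusted p = 1.3e-06), and that from bIP was -0.79 in the first series and -1.38 in the second. The single distal region, at 2337 bp, was not called in any comparison.

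GAP43, the growth-cone protein, had 2 neighbouring promoter regions with different courses. The main one (chr3:112232341-112233543) held 22.9, 20.6, 18.2 and 25.7 CPM in N, 27.1, 24.3, 23.8, 32.7 and 33.8 CPM in bIP, 22 and 18.6 CPM in bRG, and 19.5, 22 and 20.7 CPM in aRG. Every bIP library lay above the bRG and aRG libraries, while N lay among all groups. It was lower in N than in bIP by -0.38 ± 0.15 (adjusted p = 0.0369) and higher in bIP than in aRG by 0.43 ± 0.17 (adjusted p = 0.0408). Both calls were lost within either series alone and under most other settings. The region at 1000 bp (chr3:112233643-112234744) held 15.7, 13.2, 11.6 and 19.8 CPM in N, 9.72, 8.67, 9.85, 14.6 and 17.1 CPM in bIP, 9.15 and 6.98 CPM in bRG, and 5.77, 5.86 and 7.94 CPM in aRG. It was higher in N than in aRG by 1.16 ± 0.22 (adjusted p = 4.35e-05) and higher in bIP than in aRG by 0.83 ± 0.21 (adjusted p = 0.00185), with no overlap in either pair. The second of these was 0.99 in the second series alone and did not pass there. Between N and bIP it was not called (0.33 ± 0.18, adjusted p = 0.125), with 0.64 in the first series, where it passed, and -0.02 in the second.

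Of the 13 distal GAP43 regions, 4 were lower from bIP on, 2 were highest in bIP, 2 opened in N, 1 opened at both steps, 1 had other calls and 3 had no call. Of all distal regions, 17.9%, 10.2%, 19.2%, 7%, 12.8% and 19.1% took these courses, in that order. At 14974 bp (chr3:112247623-112249051) the region held 4.05, 3.40, 7.11 and 7.60 CPM in N, 7.23, 6.73, 9.85, 16.7 and 17.3 CPM in bIP, 1.82 and 2.11 CPM in bRG, and 0.870, 0.811 and 2.55 CPM in aRG. It was higher in bIP than in bRG by 3.13 ± 0.28 (adjusted p = 3.93e-08) and lower in N than in bIP by -1.15 ± 0.18 (adjusted p = 5.92e-06), though the levels of N in the second series overlapped those of bIP in the first. At 11821 bp (chr3:112244470-112245281) accessibility was seen mainly in bIP, where all 5 libraries lay between 5.18 and 5.50 CPM. The other libraries were at 0.858, 0.815, 1.68 and 1.03 CPM in N, 1.36 and 1.17 CPM in bRG, and 1.30, 1.37 and 1.91 CPM in aRG. The differences were -2.32 ± 0.23 for N against bIP (adjusted p = 5.3e-09) and 1.79 ± 0.24 for bIP against aRG (adjusted p = 9.04e-07). At 41105 bp (chr3:112190588-112191581) the radial glia were highest, with 3.04, 2.65, 3.36 and 2.02 CPM in N, 5.52, 5.11, 4.23, 5.22 and 3.86 CPM in bIP, 19.3 and 14.6 CPM in bRG, and 17.7, 18.9 and 18.3 CPM in aRG. It was lower in bIP than in aRG by -1.92 ± 0.19 (adjusted p = 8.6e-09) and lower in N than in bIP by -0.78 ± 0.19 (adjusted p = 0.00128), the second call being lost with loess offsets (-0.38) and in the second series alone (-0.76).

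There were 4 genes with more than 1 promoter region, and the regions of each pair lay 99 to 192 bp apart (TUBB3 104 bp, GAP43 99 bp, STMN4 123 bp, MAP2 192 bp). The log2 ratio of the counts in the farther region to those in the nearer one does not depend on a single scaling factor per library. Loess offsets vary with the abundance of a region and need not cancel in it, and the ratio was not computed with them. This measure was added after the values of the regions had been seen, so it is given as a description with no test. For TUBB3 the ratio was -0.92 ± 0.16 in N (SD, n = 4), -0.22 ± 0.07 in bIP (n = 5) and 0.08 ± 0.07 in aRG (n = 3), with 0.08 and 0.16 in the bRG libraries. For GAP43 it was -0.55 ± 0.13 in N, -1.28 ± 0.21 in bIP and -1.68 ± 0.27 in aRG, with -1.27 and -1.42 in bRG. For STMN4 it was -1.85 ± 0.05 in N, -2.55 ± 0.21 in bIP and -3.26 ± 0.35 in aRG, with -2.78 and -2.83 in bRG. In these 3 genes no N library overlapped a bIP library. The share of neighbouring promoter pairs of other genes without such overlap was not computed, so it is not known whether this is particular to these genes. The differences between N and bIP were -0.71 for TUBB3, 0.72 for GAP43 and 0.70 for STMN4, and they stayed between -0.75 and -0.63, 0.66 and 0.80, and 0.65 and 0.77 when any 1 library was left out. For MAP2 the ratio of the region at 484 bp to the main one was -1.07 ± 0.66 in N, -0.58 ± 0.07 in bIP and 0.20 ± 0.18 in aRG. The difference between N and bIP was -0.50, and -0.19 without N2. Between bIP and aRG, TUBB3 (-0.29), MAP2 (-0.78) and STMN4 (0.70) did not overlap, while GAP43 (0.41) overlapped.

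**Figure D3:**
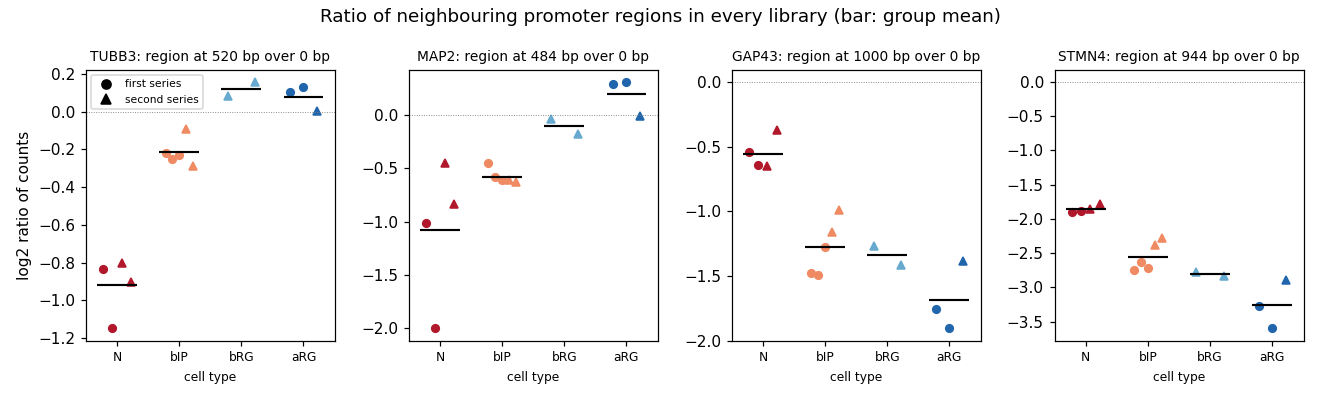
Log2 ratio of the counts in the farther promoter region to those in the nearer one (vertical axis) for TUBB3, GAP43, STMN4 and MAP2, with a point for each library of N, bIP, bRG and aRG and a line at the group mean. N lies below bIP for TUBB3 and above it for GAP43 and STMN4, without overlap, and in MAP2 the library N2 lies apart.

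Levels can be set between genes only per length. Per kilobase of region, the main promoters held 31.0 CPM in N, 33.5 CPM in bIP, 23.8 CPM in bRG and 28.2 CPM in aRG for MAP2, the highest of the 9 genes in N and bIP. STMN1 was highest in bRG and aRG, with 20.9, 30.3, 30.3 and 35.5 CPM per kilobase in N, bIP, bRG and aRG. STMN2 had 16.9, 12.1, 3.30 and 3.70 CPM per kilobase in the same order and was the lowest in bIP and in both radial glia groups. The other genes lay between 13.3 CPM per kilobase, for MAPT in bRG, and 31.0, for TUBB3 in bIP.

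The 126 distal member regions tested were sorted by their calls between N, bIP and aRG. With 25 regions, the commonest course was opening in N only (higher in N than in bIP and aRG, not called between bIP and aRG), 19.8% of the members and 19.2% of the 177609 distal regions with a listed gene. Another 16 regions opened at both steps, 12.7% of the members and 7% of all distal regions, and 6 opened in bIP and stayed open in N (4.76% and 7.2%). There were 12 regions highest in bIP, called above both aRG and N (9.52% and 10.2%), and 6 of them belonged to MAP2. Losses were fewer: 21 regions were lower in bIP and N than in aRG (16.7% and 17.9%) and 6 were lower in N only (4.76% and 6.55%). A further 15 had other combinations of calls (11.9% and 12.8%) and 25 had no call (19.8% and 19.1%). These counts depend on the libraries and on the setting, and under some settings the median of all regions moved as well. Opening at both steps was called at 10 regions without aRG2 or without bIP4, 9 with the closest pairs summed or the replicate block and 1 in the second series alone. Opening in bIP that was kept in N was called at 3 without aRG2, with no filter or with the replicate block and at 1 in the second series alone, and lower levels from bIP on at 10 in the second series alone. Opening in N only stayed between 21 and 29 when any 1 library was left out. The shares of all distal regions that took these courses under these settings were not computed.

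**Figure D4:**
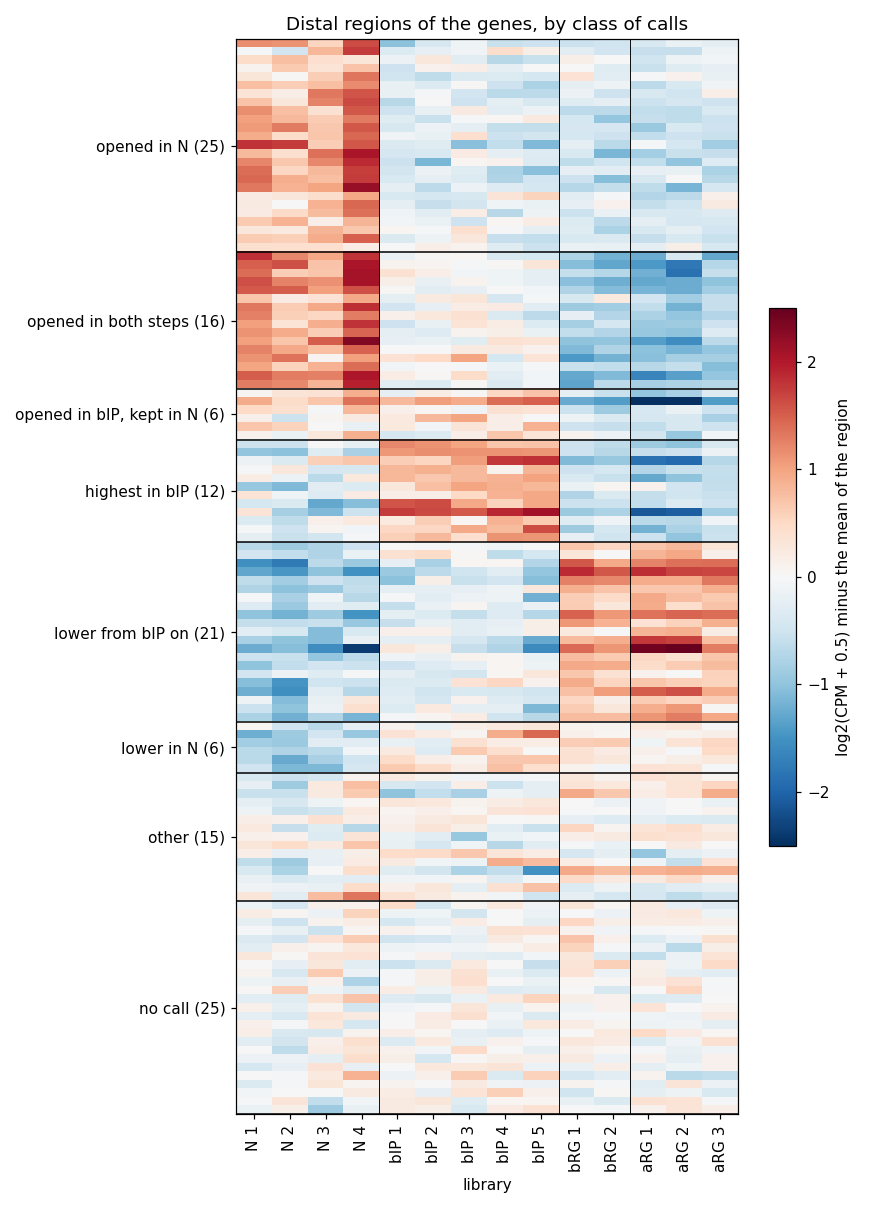
Accessibility of the 126 distal member regions tested (rows, grouped by course of calls) in the 14 libraries (columns, N, bIP, bRG, aRG), as log2(CPM + 0.5) minus the mean of the region over the libraries. The block of 25 regions that opened in N is high in the N columns, the block of 12 regions highest in bIP is high in the bIP columns, and the bRG and aRG columns look alike.

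Distal calls were read against all distal regions with a listed gene. Between N and bIP 44 of 126 were higher and 33 lower, against 30.6% and 26.7% of all. Between N and aRG 55 were higher and 32 lower, against 39.5% and 28.4%, and between bIP and aRG 36 were higher and 25 lower, against 25.5% and 21.1%. The median distal difference was 0.02 between N and bIP (all distal regions 0.03), 0.37 between N and aRG (0.30) and 0.26 between bIP and aRG (0.08). By gene, STMN1 and STMN4 had 10 gains and no loss between N and bIP in 12 distal regions, while MAP2 had 7 gains and 12 losses in 29. The summed distal levels of the N and bIP libraries overlapped for every gene with distal regions except MAP2. Mean sums in N and bIP were 27.8 and 25.4 CPM for STMN2 and 57.8 and 44.6 CPM for STMN4. They were 52.8 and 50.5 CPM for GAP43 and 211 and 180 CPM for DCLK1. The closest gene was assigned by distance, and none of the distal regions is shown here to act on the gene listed.

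**Figure D5:**
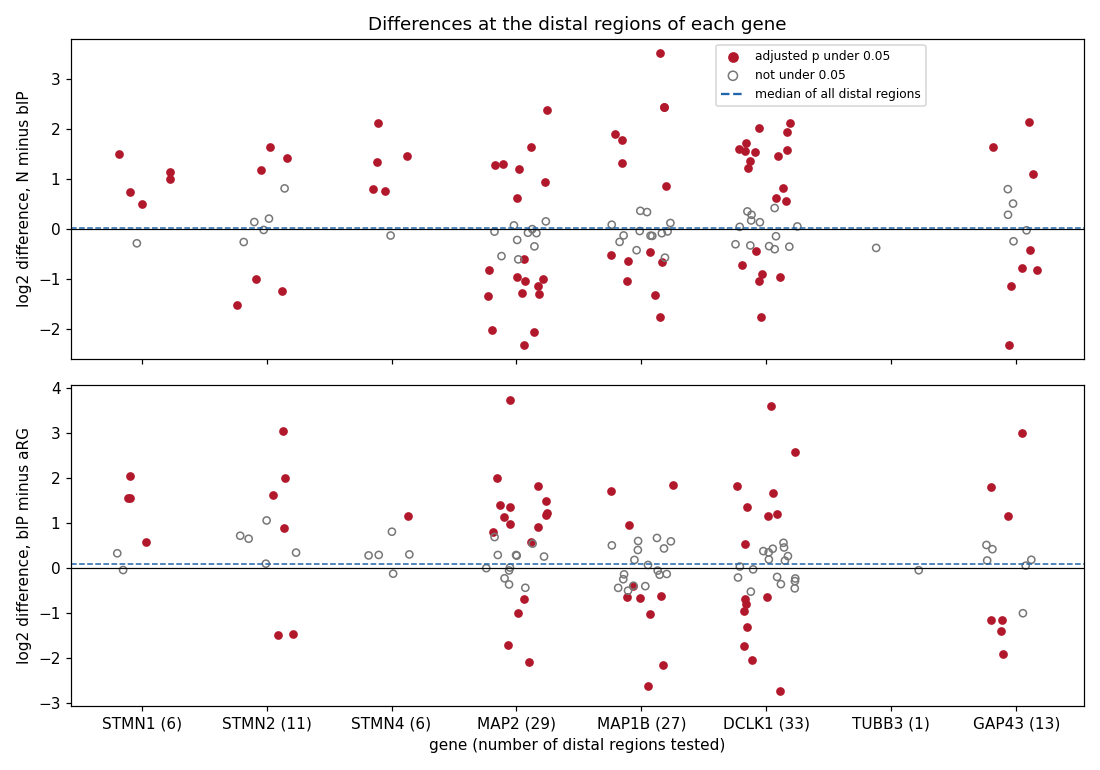
Log2 differences of the distal member regions by gene (horizontal axis) for N minus bIP (top) and bIP minus aRG (bottom), a point for each region, filled where called. In N minus bIP all called regions of STMN1 and STMN4 lie above 0, and in bIP minus aRG 13 called MAP2 regions lie above 0 and 4 below.

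No member region was called between bRG and aRG by edgeR or by DESeq2, and the smallest adjusted p of a member was 0.987. At an unadjusted p under 0.05 there was 1 member region, and among all regions 0% were called in either direction and 8197 had an unadjusted p under 0.05. With 2 bRG libraries, all in the second series, the 95% interval lay within 2-fold for 80 of 140 members and for 13 of the 14 promoters. For STMN2 it ran between -0.85 and 0.21, and for MAPT between -0.89 and 0.25.

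The peak sets gave a second view, with 1 consensus set per cell type and no replicates. They hold no peaks on the chromosome that carries MAP2, so 109 member regions could be compared. Of these, the N set touched 50, the bIP set 44, the bRG set 46 and the aRG set 43 by at least 1 bp, which is 45.9%, 40.4%, 42.2% and 39.4% of them. Of 5000 regions sampled from the whole table, these sets touched 36.9%, 35.0%, 35.5% and 36.7% in the same order. Of the 11 promoter regions, 9 were touched in all 4 sets. GAP43 at 1000 bp was touched in N, bIP and bRG, and STMN4 at 944 bp in N and bIP. Among the distal regions 12 were touched in N only, 7 in N and bIP, 10 in bRG and aRG, 3 in bIP only and 17 in all 4 sets, while 38 were touched in none. The STMN1 region at 1056 bp was among those touched in none. How often these patterns occur among all regions was not computed, so they are not read as a trait of these genes.

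A list of 63 other microtubule genes, chosen with earlier results of these data known, had 48 main promoter regions measured. Between N and bIP 1 was higher and 11 were lower, where 13.7% and 22.3% of all main promoter regions were called, and the median difference was -0.21 (all main promoters -0.13). Between N and aRG 3 were higher and 17 lower (16.3% and 35.3% of all), between bIP and aRG 2 and 2 (10.7% and 18.4%), and between bRG and aRG none either way. In the first series alone 4 were higher and 1 lower between N and bIP (median 0.05), and in the second 1 was higher and 15 lower (median -0.53), so the direction did not hold within the series. It depends on the scaling too: with loess offsets 18 were higher and 7 lower between N and bIP. The shares of all main promoter regions called under these settings were not computed. The single promoter called higher in N than in bIP belonged to DYNC1I1, an intermediate chain of the dynein motor, with 17.8 CPM in N, 11.6 CPM in bIP, 11.3 CPM in bRG and 11.5 CPM in aRG (0.61, adjusted p = 0.0066). The microtubule-severing gene FIGN was lower at each step, with 11.6 CPM in N, 23.0 CPM in bIP, 30.8 CPM in bRG and 36.4 CPM in aRG. Its differences were -0.98 between N and bIP (adjusted p = 5.3e-06) and -0.65 between bIP and aRG (adjusted p = 0.0011). The kinesin gene KIF21B was highest in bIP, with 41.9 CPM in N, 63.1 CPM in bIP, 26.9 CPM in bRG and 29.3 CPM in aRG, and was lower in N than in bIP by -0.59 (adjusted p = 0.0031) and higher in bIP than in aRG by 1.08 (adjusted p = 2.6e-05). CLASP2, which binds growing microtubule ends, was lower in N than in bIP by -0.57 (adjusted p = 0.0023).

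The promoters most like those of 4 members were found by Pearson's r of log2 CPM over the 14 libraries among 19305 main promoters, as a description, since the libraries share groups and depth. SLC7A14 was most like STMN2 (r = 0.994), with 24.1 CPM in N, 15.6 CPM in bIP, 3.86 CPM in bRG and 5.03 CPM in aRG, followed by MANEAL (0.988) and AL139351.1 (0.987). MAPT was most like SH3D21, TSPAN2 and AC092803.4 (0.960 to 0.961), GAP43 most like SOGA3 (0.939) and TUBB3 most like PLCXD2 (0.980).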

How the data were processed

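Bulk ATAC-seq of 14 libraries was analysed: 4 of N, 5 of bIP, 2 of bRG and 3 of aRG. The authors deposited raw counts per region and library with gorilla (gorGor6), closest gene and distance columns, per the file headers. Peak sets deposited by the authors give, per the file headers of that format, a score, a fold enrichment and a −log10 q per peak, 1 set per cell type. MACS2 and bcl2fastq 2.20.0 and the builds hg38 and panTro6 are named in the submitters' processing notes; the aligner, the counter, whether reads were moved to where the enzyme cut, and the point from which distance was measured were not given in the sources used here. Size selection in the labels' protocols shapes which fragments are seen. Neither exon nor intron status was used here.

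Of 218080 rows, 13823 without a gorilla position and 8 repeats were left out. Regions passing edgeR's filterByExpr (200931) were fitted with edgeR 4.0.16 (R 4.3.3), TMM scaling, quasi-likelihood F tests, group means and the library series as a term (9 residual degrees of freedom), with Benjamini-Hochberg adjustment and a threshold of 0.05. CPM use the TMM-scaled totals. The fit was tested on simulated counts. Alternatives were DESeq2 1.42.0, its size factors, library totals, loess offsets, other filters, no series term, a replicate block, each series alone, groups in pairs, closest pairs summed and each library left out. Peaks carry no build and were set on gorGor6 because they touched 62.9% of 5000 sampled regions, and 11.9% after a shift of 50000 bp. A count of 3 was used as the floor, which covers counting error only. Named regions are every promoter region, and per gene the distal regions with the smallest p in N minus bIP, N minus aRG and bIP minus aRG and with the highest mean CPM; of the other microtubule genes, those with the 3 smallest p per direction in N minus bIP and bIP minus aRG. Members, lists and tests were chosen with earlier results of these data known.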

Additional observations from a re-analysis of the deposited data

Results flagged for a closer look

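Among 74 groups of 4 or 5 libraries at the named regions, 4 held a library far from the others of its group, a rate that chance alone gives in about 1 of 20 groups. At the STMN2 promoter bIP5 stood at 57.5 CPM, above the other bIP libraries. At the main MAP2 promoter N3 stood at 13.0 CPM and bIP3 at 17.8 CPM, below their groups. At the low MAP2 region at 551 bp bIP4 stood at 2.96 CPM, above its group.

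The difference between N and bIP at the MAP2 region 33805 bp from the gene was not the same in the library series: it was -1.83 in the first and -2.97 in the second, and the difference between them was -1.14 ± 0.37 in a fit with a mean per cell type and series (edgeR, adjusted p = 0.050). The direction was the same in both.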

How the results depend on the processing

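Of 112 called differences at the named regions, 66 kept their call under every setting run and 46 lost it under at least 1. Loess offsets turned 6 differences that were negative with TMM scaling: between N and aRG to 0.29 at the DCLK1 promoter, 0.20 at the main TUBB3 promoter and 0.17 at the MAP1B promoter, and between N and bIP to 0.25 at the main MAP2 promoter, 0.21 at the STMN4 region at 15769 bp and 0.00415 at the GAP43 region at 3477 bp. Of these 6, only the difference at the GAP43 region at 3477 bp had been called with TMM scaling. In the second series alone the MAP2 region at 551 bp gave 0.037 between N and aRG, against -0.83 in all libraries. The cause was not tested. The second series alone, with fewer libraries, called 22 member regions lower in N than in aRG, and 16 higher and 13 lower in bIP than in aRG. Of all 201113 regions tested there, 39633 were lower in N than in aRG. In bIP 27670 of them were higher and 21811 lower than in aRG. With only both groups in the fit, 26 members were lower in bIP than in bRG, as were 44242 of all 191257 regions. The first series has no bRG library and gives no value for it. The replicate numbers did not pair the samples: over 16 same-numbered pairs the correlation of deviations ran between -0.258 and 0.340, 7 being over 0.1, and 3 of 13 libraries correlated best with their own number. With the numbers as a replicate block, 16 members were higher and 17 lower in N than in bRG, 26 higher in bIP than in aRG, and 6 higher and 1 lower in bIP than in bRG. Of all 200931 regions these were 24000 and 20832, 37923, and 5303 and 596, in that order. Leaving out 1 library at a time gave 39 to 49 higher and 31 to 40 lower in N than in bIP, 51 to 60 and 32 to 45 in N than in aRG, 46 to 52 and 18 to 36 in N than in bRG (18 without bRG1), 29 to 41 and 22 to 34 in bIP than in aRG, 20 to 37 and 12 to 24 in bIP than in bRG (20 higher without bRG2), and 0 between bRG and aRG. Calls over all regions moved too, with 51405 to 58648 higher and 47232 to 58887 lower in N than in bIP. Without bRG1, 42431 of 202866 regions were lower in N than in bRG. Without bRG2, 29673 of 202829 were higher in bIP than in bRG. Members whose N and bIP difference differed between the series numbered 1 (without bIP5) to 27 (without N4). Leaving out N2 (2), bIP1 (4), bIP2 (4), bIP3 (5) or N3 (19) also moved that count by over 1.5 times. How many of all regions then differed was not computed. The median of all regions between N and aRG was 0.18, with 0.35 for library totals and 0.05 for loess offsets or DESeq2 size factors. It was -0.01 without aRG2, without bIP4 or with no filter, and -0.02 with the closest pairs summed. Between bIP and aRG it was 0.03, against -0.12, -0.10, -0.12 and -0.13 under these settings in that order. Whether calls lost there follow this shift was not tested. Depth limits regions near the floor, and 2 bRG libraries limit every comparison with bRG.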

Other observations

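The difference between N and bIP was compared between the library series at all regions. It differed at 8 of 140 member regions (5.71%) and at 8.33% of all regions. The 8 were 2 regions each of DCLK1, MAP2 and STMN2 and 1 each of MAP1B and STMN4, none of them a promoter. The largest were the STMN2 region at 51956 bp (2.40) and the DCLK1 region at 165861 bp (2.12), both chosen after their values were seen.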
